A study of Mus musculus with 16 samples.

Results

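Klhl6, F13a1, Sult1a1, Adamtsl4 and Rgcc were followed over every treatment group of a mouse macrophage experiment. They are 5 of the 16558 annotated genes on the array and are measured by 7 of its 25697 probes, 3 for Klhl6 and 1 for each of the others. All 5 passed the filter on dim probes in both experiments, in which 8032 and 7791 genes were tested after 3 h and 6 h of lipopolysaccharide. Sult1a1 passed it at 3 h only through the arrays with dexamethasone plus lipopolysaccharide, and at 6 h only through the groups with dexamethasone. The genes were chosen on their measured signals, which were higher with dexamethasone plus lipopolysaccharide than with lipopolysaccharide alone, so their values in that contrast are a description and carry no test.

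The cells were primary macrophages grown from bone marrow of male wildtype C57Bl6/J mice aged 10 weeks. They received 1 µM dexamethasone (Dex), a synthetic glucocorticoid, or ethanol overnight, and then lipopolysaccharide (LPS), a bacterial product sensed by TLR4, or nothing. The groups were therefore Dex plus LPS, Dex, LPS with ethanol, and ethanol alone (unstimulated), each with 2 arrays in an experiment with 3 h of LPS and in a separate one with 6 h, which makes 16 arrays. Since the sample titles describe both arrays of each group as technical replicates, the p-values measure array-to-array spread only, and differences between cultures or animals are not covered.

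Dex binds the glucocorticoid receptor, which moves to the nucleus, raises the transcription of some genes through DNA elements and lowers that of many inflammatory genes. In macrophages its targets include brakes on inflammation and genes of a scavenging state, and LPS drives the opposing inflammatory programme through NF-kB and AP-1. Klhl6 encodes a BTB-Kelch protein, a substrate adaptor of cullin 3 ubiquitin ligases known from B cells, where it takes part in antigen receptor signalling. F13a1 encodes the A subunit of coagulation factor XIII, a transglutaminase that crosslinks fibrin and is made by macrophages and megakaryocytes. Sult1a1 encodes a cytosolic sulfotransferase that conjugates phenolic compounds, Adamtsl4 a secreted ADAMTS-like protein without protease activity that binds fibrillin-1 microfibrils, and Rgcc a regulator of cell cycle that binds the mitotic kinase Cdk1.

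Between 40.5% and 46.4% of probes were detected per array at a detection p under 0.05, and the median signal lay between 154 and 189. Of 9 macrophage markers on the array 8 were detected on both arrays of every group, and Msr1 was the exception. T cell markers were detected in no group (0 of 4, on both arrays), and 5 of 5 neutrophil genes were detected in every group. The 6 h signals of Fkbp5, a classical glucocorticoid target, followed the labels, with 1272 and 1517 in Dex plus LPS and 3147 and 2832 in Dex, against 280 and 271 in LPS and 218 and 283 in unstimulated cells. The 3 h signals did not. Tnf, an early LPS target, stood between 59741 and 63509 on all 8 arrays of the 3 h experiment, and Fkbp5 stood between 227 and 275 on all of them except the 2 of Dex plus LPS, which had 1763 and 1982. The levels thus went against the labels of the 4 arrays called unstimulated and Dex at 3 h, and every 3 h comparison that uses them rests on doubted labels. The comparison of Dex plus LPS with LPS at 3 h takes no group mean from them, though they enter its normalization and spread. No 6 h signal comes from a 3 h array, though the probe that stands for a gene was chosen on both experiments.

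Klhl6 was higher with Dex and lower with LPS at 6 h. Its signal was 4545 and 5751 in Dex plus LPS, 10910 and 11428 in Dex, 531 and 570 in LPS, and 1438 and 1820 in unstimulated cells. Dex stood at the top and LPS at the bottom. After normexp background correction, quantile normalization and log2, Klhl6 rose in Dex against unstimulated cells by 2.57 ± 0.16 (SE, 2 arrays a group), which is 5.94-fold, with an adjusted p of 5.3e-05 (limma, Benjamini-Hochberg over all genes). This comparison shares no array with the contrast on which the genes were chosen. Klhl6 fell in Dex plus LPS against Dex by 1.28 ± 0.16 on the log2 scale (2.42-fold, adjusted p = 0.00029), a comparison that shares the Dex plus LPS arrays with the contrast of choice but runs against the direction it favours. LPS minus unstimulated was -1.96 ± 0.16 (3.90-fold lower). The choice favoured genes that were low on these LPS arrays, so the members' values in LPS against unstimulated cells are descriptions and carry no p. In that contrast the difference, Dex plus LPS minus LPS, was 3.26 ± 0.16. In whole-culture RNA a change in the number of cells that express a gene and a change in RNA per cell cannot be told apart. B cell markers were near background, with 0 to 2 of 6 detected on both arrays of a group and Pax5, Blk and Vpreb3 detected on no array. Their summed signal was 881 to 952 in Dex plus LPS, 926 to 1017 in Dex, 869 to 876 in LPS and 937 to 1076 in unstimulated cells, so the Dex range overlapped that of unstimulated cells.

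All 3 Klhl6 probes went the same way at 6 h. The second bright probe had 4065 and 4648 in Dex plus LPS, 6700 and 8199 in Dex, 427 and 471 in LPS, and 1084 and 1055 in unstimulated cells. Its differences were 2.60 ± 0.22 for Dex minus unstimulated and -1.70 ± 0.22 for LPS minus unstimulated. Dex plus LPS minus Dex was -0.91 ± 0.22 on it, which is under 2-fold, and -1.32 ± 0.19 on the third probe, which is dim. The dim probe had 268 and 296 in Dex plus LPS and 587 and 485 in Dex, and was not detected on the LPS arrays (120 and 137) or the unstimulated arrays (168 and 187). On that probe the Dex minus unstimulated difference was 2.65 ± 0.19 and the LPS minus unstimulated difference, between levels at background, -0.79 ± 0.19.

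F13a1 was higher with Dex and differed less with LPS. Its 6 h signal was 2073 and 2878 in Dex plus LPS, 4799 and 4363 in Dex, 408 and 406 in LPS, and 458 and 810 in unstimulated cells. The 2 unstimulated arrays differed most as a ratio. The rise in Dex against unstimulated cells was 2.84 ± 0.22 (7.17-fold, adjusted p = 0.00013). LPS minus unstimulated was -0.92 ± 0.22 (1.89-fold lower). Over 17 alternatives F13a1 ran there from -1.24, without the first unstimulated array, to -0.59. It fell by 1.04 ± 0.22 in Dex plus LPS against Dex (2.06-fold, adjusted p = 0.0051), a call close to the 2-fold threshold that ended under 4 of 17 alternatives, one of them leaving out the first Dex plus LPS array (-0.998, adjusted p = 0.049). Dex plus LPS minus LPS was 2.72 ± 0.22. Of 5 platelet and megakaryocyte markers only Pf4, which macrophages also express, was detected on both arrays of each group, and Ppbp, Gp9 and Gp1bb were detected in none. The summed signal of the list, nearly all from Pf4, was 15031 to 16078 in Dex plus LPS, 17573 to 21345 in Dex, 12875 to 15409 in LPS and 12265 to 16141 in unstimulated cells. It was thus highest with Dex alone, and its part in the F13a1 result was not tested.

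Sult1a1 was detected at 6 h only in the groups with Dex, and it passed the filter on dim probes only through them. Its 6 h signal was 402 and 523 in Dex plus LPS and 1245 and 1470 in Dex. It was 140 and 135 in LPS and 164 and 195 in unstimulated cells, all 4 not detected. Sult1a1 rose at least 15.3-fold in Dex against unstimulated cells (adjusted p = 3e-06), a lower limit that sets the Dex mean against the dimmest detected level of the unstimulated arrays or the probe's own level, whichever was higher. This limit, like each one given as at least a fold, holds only on the background-corrected scale with an offset of 16. The fitted log2 difference of 4.28 ± 0.19 became 3.65 with an offset of 50, 2.65 with no background correction and 2.56 in the authors' processed value table. With no filter on detection its adjusted p was 7.9e-05 (limma). Between Dex plus LPS and Dex, both detected, Sult1a1 fell by 1.92 ± 0.19 (3.77-fold, adjusted p = 6.1e-05). No fold is given for LPS against unstimulated cells, as both were at background. Dex plus LPS was at least 4.08-fold higher than LPS on the corrected scale, where the log2 difference of 3.08 became 2.25 with an offset of 50 and 1.47 uncorrected.

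Adamtsl4 was dim throughout and had the same order of groups as Klhl6. Its 6 h signal was 430 and 523 in Dex plus LPS, 990 and 992 in Dex, 177 and 183 in LPS, where it was not detected, and 224 and 276 in unstimulated cells. The groups did not overlap. It rose in Dex against unstimulated cells by 2.43 ± 0.18 (5.41-fold, adjusted p = 9.8e-05) and fell in Dex plus LPS against Dex by 1.31 ± 0.18 (2.49-fold, adjusted p = 0.00038). It was at least 1.97-fold lower in LPS than in unstimulated cells on the corrected scale (fitted difference -1.22 ± 0.18), which became -0.49 with no background correction. Dex plus LPS was at least 4.28-fold higher than LPS on that scale, where the log2 difference of 2.34 became 1.85 with an offset of 50 and 1.15 uncorrected.

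Rgcc went another way. Its 6 h signal was 1677 and 2596 in Dex plus LPS, against 473 and 466 in Dex, 524 and 515 in LPS, and 352 and 476 in unstimulated cells. Dex plus LPS stood above all other arrays, the Dex arrays lay within the range of the unstimulated ones, and the LPS arrays lay just above it. Dex minus unstimulated was -0.23 ± 0.19 (adjusted p = 0.46), with the sign turning to 0.16 under median scaling, and LPS minus unstimulated was 0.34 ± 0.19. Dex plus LPS minus Dex was 2.55 ± 0.19 (5.87-fold higher), the opposite sign to the other members. It is given with no p because the choice of genes favoured high Dex plus LPS arrays. Dex plus LPS minus LPS was 1.97 ± 0.19.

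**Figure D1:**
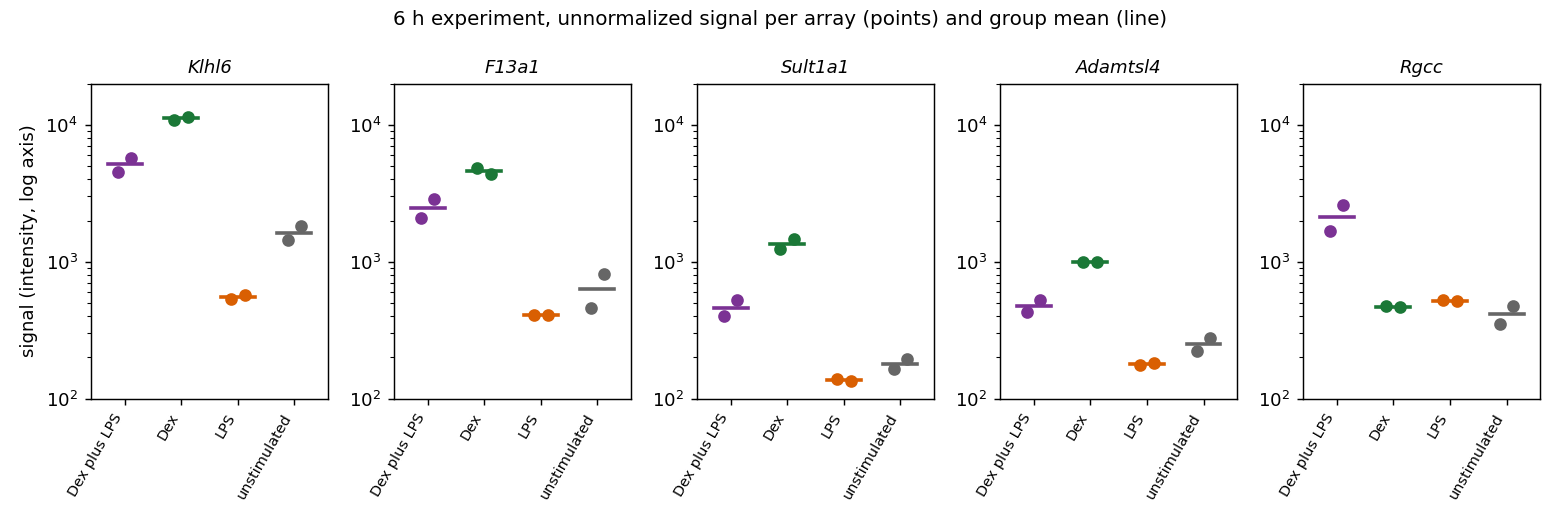
Unnormalized signal (intensity, log axis) of the 5 genes in the 6 h experiment, with a point per array and a line at the group mean. Klhl6, F13a1, Sult1a1 and Adamtsl4 are highest with Dex alone, and Rgcc is highest with Dex plus LPS, at 1677 and 2596.

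The non-additive difference, which is the Dex effect with LPS minus the Dex effect without LPS, was computed at 6 h as a description because it contains the contrast of choice. It was 2.21 ± 0.26 for Rgcc. Klhl6 had 0.69 ± 0.23, which became 0.44 with no background correction and 0.31 with the mean of its detected probes. F13a1 had -0.12 ± 0.30, or 0.20 and -0.45 without the first or the second unstimulated array. Adamtsl4 had -0.09 ± 0.25 (-0.51 uncorrected) and Sult1a1 -1.20 ± 0.27, but Adamtsl4 was at background in LPS and Sult1a1 in both groups without Dex, so these values have no firm size. The median over all genes was 0.05.

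Read against all genes tested at 6 h, the 5 members were called as follows, where a gene counts as called if its adjusted p was under 0.05 and it differed 2-fold or more. In Dex against unstimulated cells 4 of 5 were called higher and 0 lower, where 1.63% of all genes were called higher and 1.89% lower. Their median difference was 2.57, against -0.01 over all genes. Sult1a1, among those called, passed the filter on dim probes only through the groups with Dex. In LPS against unstimulated cells 2 of 5, Klhl6 and Adamtsl4, passed these thresholds in the lower direction and 0 in the higher, where 8.75% of all genes were called lower and 8.36% higher. Against Dex, the Dex plus LPS arrays had 4 of 5 called lower and 1, Rgcc, higher, where 6.74% of all genes were called lower and 6.75% higher. The choice of genes favoured low LPS and high Dex plus LPS arrays, so nothing is read from the 2 lower with LPS or from Rgcc. In the contrast of choice, Dex plus LPS against LPS at 6 h, 1.31% of all genes were called higher and 2.45% lower, and the members' place there follows from their choice. Median scaling moved the median of all genes by 0.28 in Dex against unstimulated cells, by 0.14 in LPS against unstimulated cells and by 0.14 in Dex plus LPS against LPS. The calls of the members in Dex against unstimulated cells stayed 4 of 5 under that scaling, while the genes called there were 414 higher and 64 lower in place of 127 higher and 147 lower. In LPS against unstimulated cells they were 845 higher and 481 lower in place of 651 and 682, and in Dex plus LPS against LPS 204 higher and 152 lower in place of 102 and 191.

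**Figure D2:**
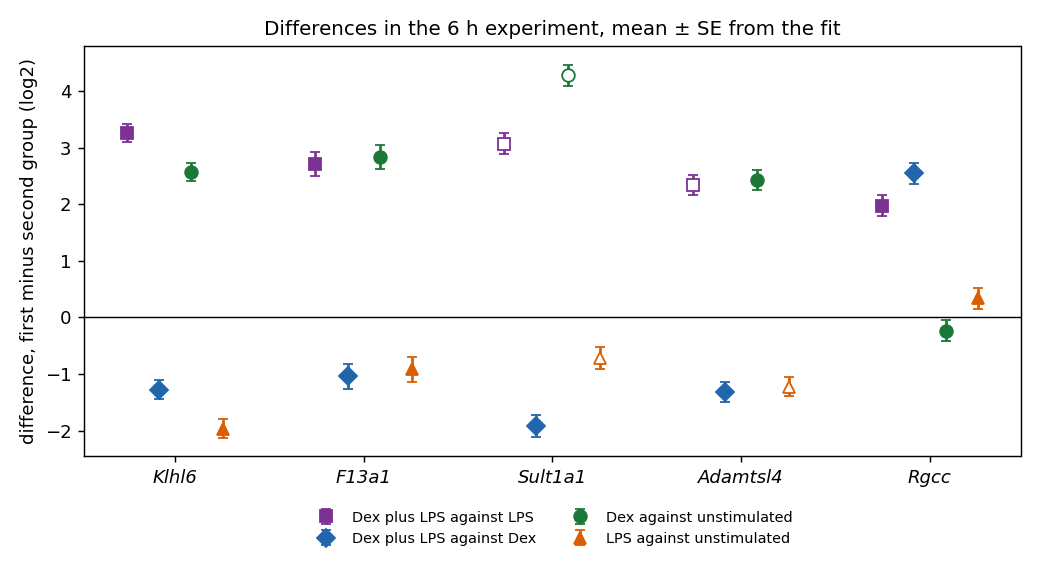
Log2 differences between groups of the 6 h experiment for each gene, first minus second group, as mean ± SE from the fit with 2 arrays a group. Open symbols mark comparisons in which a group was not above background, so that the difference has no firm size. Rgcc is at 2.55 in Dex plus LPS against Dex, where the other 4 genes lie between -1.92 and -1.04.

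At 3 h the 5 genes were higher in Dex plus LPS than in LPS, the contrast on which they were chosen. Klhl6 had 5699 and 5868 in Dex plus LPS, against 810 and 811 in LPS, a difference of 3.08 ± 0.08. F13a1 had 4352 and 4235 in Dex plus LPS, against 895 and 959 in LPS, a difference of 2.43 ± 0.08. Both genes thus had nearly equal levels on the 2 arrays of a group. Sult1a1 had 568 and 675 in Dex plus LPS, against 155 and 148 in LPS, where it was not detected. It was at least 9.14-fold higher on the corrected scale. There the log2 difference of 3.71 became 2.83 with an offset of 50 and 1.84 uncorrected. Adamtsl4 had 652 and 624 in Dex plus LPS, against 195 and 174 in LPS, where 1 of 2 arrays detected it. Its fitted difference of 3.05 ± 0.19 became 2.47 with an offset of 50 and 1.62 uncorrected. Rgcc had 909 and 954 in Dex plus LPS, against 423 and 586 in LPS, a difference of 1.11 ± 0.17, or 0.84 without the first LPS array and 1.38 without the second. Of all genes 1.16% were called higher in this comparison.

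The arrays labelled Dex at 3 h lacked the large Dex response of the 6 h arrays. Klhl6 had 729 and 693 on the arrays labelled Dex, against 807 and 842 on those labelled unstimulated. F13a1 had 800 and 770 on the arrays labelled Dex, against 925 and 1018 on those labelled unstimulated. Both genes were thus slightly lower on the arrays labelled Dex. Sult1a1 was detected on 1 of the 2 arrays labelled Dex and on neither labelled unstimulated. Adamtsl4 had 227 and 216 on the arrays labelled Dex, against 198 and 208 on those labelled unstimulated. Its difference of 0.37 ± 0.19 was small but in the direction seen at 6 h. Rgcc had 511 and 513 on the arrays labelled Dex, against 514 and 498 on those labelled unstimulated. Of the 5 genes 0 were called between them by limma, where 0.759% of all genes were called in either direction. At an unadjusted p under 0.05 2 of 5 passed, Klhl6 with -0.35 ± 0.08 (adjusted p = 0.035) and F13a1 with -0.46 ± 0.08 (adjusted p = 0.019), both under 2-fold. At that unadjusted p 2591 of all 8032 genes passed in this comparison. Between the arrays labelled LPS and those labelled unstimulated 0 of 5 were called, where 2.91% of all genes were called in either direction. Klhl6 was at -0.24 ± 0.08 and F13a1 at -0.29 ± 0.08 there. These values carry no p, because the choice of genes favoured low LPS arrays at 3 h as well. As stated for Tnf and Fkbp5, the labels of these arrays are doubted, and a different response at 3 h cannot be told apart from other labels.

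**Figure D3:**
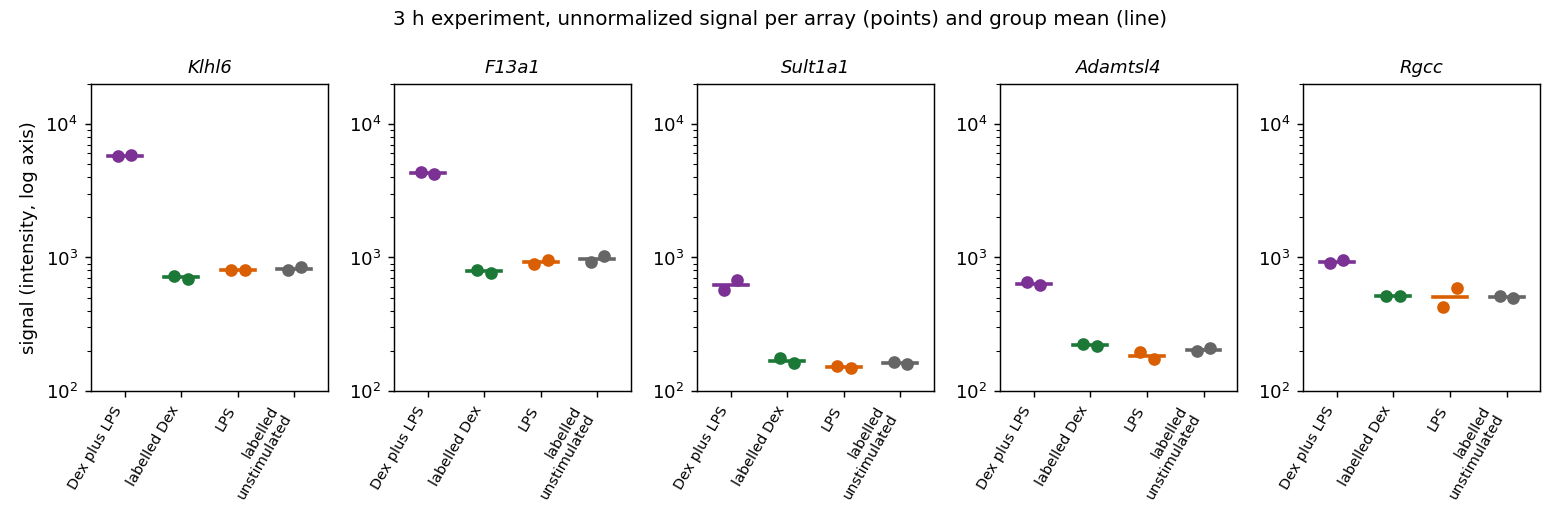
Unnormalized signal (intensity, log axis) of the 5 genes in the 3 h experiment, with a point per array and a line at the group mean. The Dex plus LPS arrays stand above the rest for each gene (Klhl6 5699 and 5868), while the arrays labelled Dex lie near those labelled LPS or unstimulated.

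The authors also deposited the 6 h samples after cubic spline normalization, and there the 5 genes differed little with Dex. Klhl6 had 1108 and 1142 in the columns labelled Dex plus LPS, 1736 and 1730 in Dex, 1026 and 1079 in LPS, and 1604 and 1668 in unstimulated cells. It was thus lower with LPS with or without Dex. Both of its Dex columns lay above both unstimulated ones and both Dex plus LPS columns above both LPS ones, by small log2 differences of 0.08 (adjusted p = 0.82, limma) and 0.10. F13a1 lay between 1019 and 1300 over the 8 columns, Sult1a1 between 185 and 233, Adamtsl4 between 180 and 221 and Rgcc between 481 and 597. The columns of these 4 genes were not ordered as those of Klhl6. How many of all genes had either order in that table was not counted, so nothing is read from it. Fkbp5 lay between 361 and 464 in all columns, so the levels of that table went against its Dex labels, while Tnf was at 44069 and 46970 in Dex plus LPS and 53305 and 46097 in LPS, against 1974 and 2010 in Dex and 2064 and 1960 in unstimulated cells. The rank correlation of each column with the unnormalized array of the same name was 0.863 to 0.895 across probes. On that table limma called 0 of 5 members in Dex against unstimulated cells (0 at an unadjusted p under 0.05) and 0 of all genes (689 at an unadjusted p under 0.05). The authors' processed value table followed the unnormalized 6 h arrays (slope 1, Pearson correlation 1 across probes after centring).

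**Figure D4:**
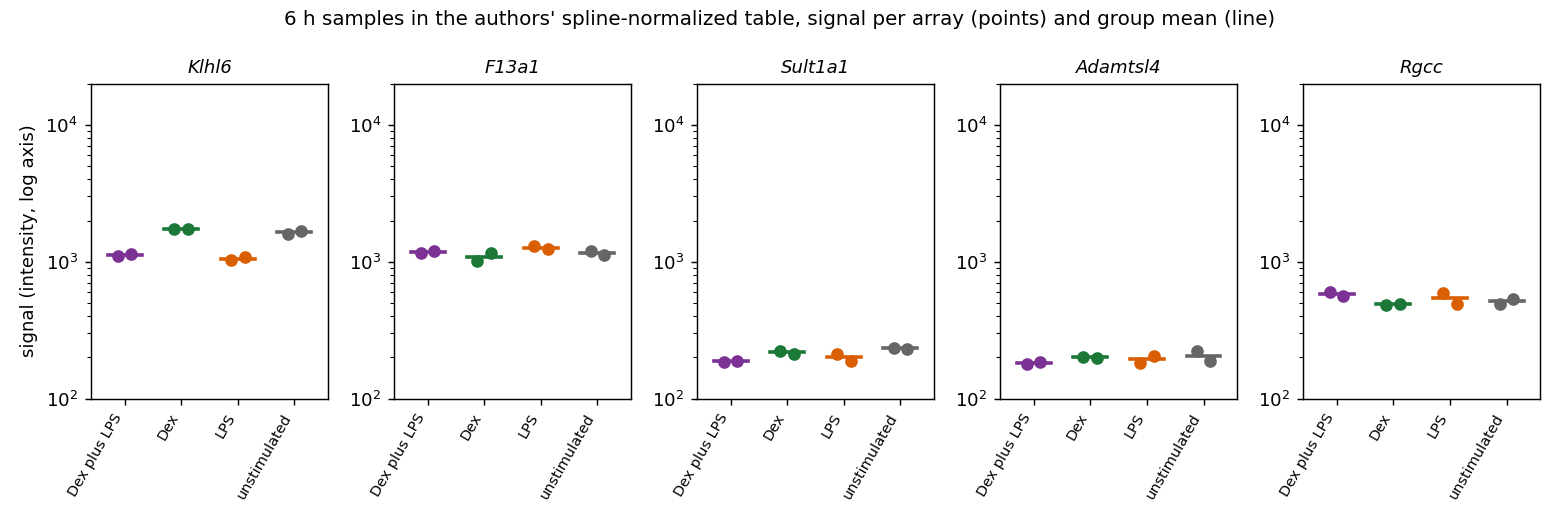
Signal of the 5 genes (intensity, log axis) in the authors' spline-normalized table of the 6 h samples, with a point per array and a line at the group mean. Klhl6 is at 1026 to 1142 in both groups with LPS and at 1604 to 1736 in both without, and Rgcc lies between 481 and 597 over the 4 groups.

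Over all 16 arrays, with log2 values centred within each experiment, Klhl6, F13a1, Sult1a1 and Adamtsl4 followed each other closely. Their 6 pairwise Pearson correlations lay between 0.960 and 0.980, and those of Rgcc with them between 0.266 and 0.337. The arrays share the treatments and the contrast of choice, so these are descriptions. Of 7453 other genes, those most like Klhl6 were the metallothionein gene Mt1 (0.976), Tsc22d3, which encodes the glucocorticoid-induced leucine zipper protein GILZ (0.976), and Rassf2 (0.969). F13a1 was most like Chil3 (0.977), a chitinase-like protein gene of macrophages, Il1r2 (0.976), the decoy receptor for interleukin 1, and Fbxl5 (0.966). Sult1a1 was most like Fkbp5 (0.978), Il1r2 (0.973) and Fbxl5 (0.965). Adamtsl4 was most like Cyp4f18 (0.955), Gnptab (0.953) and Lifr (0.952). Rgcc was most like Trem1 (0.944), an amplifier of myeloid activation, Dbt (0.928) and Mfap3 (0.924). Trem1 differed from Rgcc in its LPS minus unstimulated difference at 6 h, which was 1.51. A high correlation does not mean a change of like size. Mt1 had a Dex minus unstimulated difference of 0.38 at 6 h, where Klhl6 had 2.57. In Dex plus LPS minus LPS at 6 h Dbt had 0.82 and Mfap3 0.42, where Rgcc had 1.97.

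The nearest tested genes on the chromosome had Dex minus unstimulated differences near 0, Ecm1 excepted. For Klhl6 on chromosome 16 these were Klhl24, next to it, with a Dex minus unstimulated difference of 0.06 ± 0.20 at 6 h, and Mrpl40, 11 protein-coding genes away, with -0.01 ± 0.17. Around F13a1 on chromosome 13 Ly86 had 0.06 ± 0.17 and Fars2 -0.10 ± 0.23. Around Sult1a1 on chromosome 7 Sgf29 had 0.07 ± 0.17 and Bola2 0.12 ± 0.17. These 6 differences were each smaller than their SE. Around Rgcc on chromosome 14 Naa16 had -0.04 ± 0.23 and Dgkh -0.07 ± 0.18, and Dgkh rose with LPS by 2.02 ± 0.18 (adjusted p = 1.9e-05, limma). Around Adamtsl4 on chromosome 3 Mcl1 had 0.07 ± 0.19. Ecm1, which encodes an extracellular matrix protein, stood out with 0.95 ± 0.20 (adjusted p = 0.019, limma), just under the 2-fold threshold. Of these 10 neighbours 0 were called by limma for Dex against unstimulated cells, and 1, Ecm1, had an unadjusted p under 0.05. Such a p was reached by 1935 of all 7791 genes.

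Other genes of the members' pathways were counted list by list, against the shares of all genes called at 6 h given above. An unadjusted p under 0.05 (limma) was reached by 1935 of all 7791 genes in Dex against unstimulated cells. In Dex plus LPS against LPS it was reached by 1828. Of 32 listed cullin 3 and BTB-Kelch genes 20 were tested. In Dex against unstimulated cells 1 was called higher and 0 lower at 6 h, with a median difference of -0.03 (all genes -0.01). That gene was Klhl9, a mitotic cullin 3 adaptor, with 1.24 ± 0.32, and the call ended under 11 of 17 alternatives. In LPS against unstimulated cells 1 was higher and 2 were lower (median -0.11, all genes -0.09), namely Klhl5 with 1.50 ± 0.23, Enc1 with -1.84 ± 0.18 and Klhl21 with -1.11 ± 0.18. These 3 calls ended under 3, 2 and 4 of 17 alternatives, among them no background correction (0.78, -0.99 and -0.84) and, for Klhl21, leaving out the first LPS array (-0.97). Klhl5 was also the 1 gene higher in Dex plus LPS against Dex, with 1.41 ± 0.23 (0.57 uncorrected, where the call ended), and 0 were lower there (median 0.12, all genes -0.04). Dex plus LPS against LPS gave 0 of 20 calls by limma, with 6 at an unadjusted p under 0.05 (median 0.14, all genes 0.06).

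Of 31 listed genes of coagulation, fibrinolysis and transglutaminases 15 were tested. LPS against unstimulated cells gave 5 higher and 2 lower, with a median of 0.51 (all genes -0.09). Serpinb2, which encodes a plasminogen activator inhibitor, rose by 3.98 ± 0.21 (adjusted p = 9.3e-07, limma), and Tgm2, a transglutaminase gene like F13a1, rose by 1.50 ± 0.16. Thbd, for the anticoagulant receptor thrombomodulin, fell at least 4.20-fold to background. In Dex against unstimulated cells 1 was higher and 1 lower (median -0.30, all genes -0.01). Serpinb2 was at least 1.48-fold lower, at background (adjusted p = 0.0037), a call lost under 3 of 17 alternatives (-0.64 uncorrected), and Thbs1, the thrombospondin 1 gene, was at least 1.33-fold above a background level, a call lost under 7 of 16 alternatives. Against Dex, Dex plus LPS had 3 higher and 3 lower (median 0.13, all genes -0.04), among them Serpinb2, at least 7.04-fold higher, F10, for coagulation factor X, higher by 1.51 ± 0.19, and Thbd, at least 6.70-fold lower. The 4 called in Dex plus LPS against LPS were all lower (median -0.02, all genes 0.06), namely Serpinb2 with -1.73 ± 0.21, F8, Plaur and Procr, named after their values were seen.

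Of 41 listed genes of sulfation 23 were tested, and 0 were called by limma in Dex against unstimulated cells, with 3 at an unadjusted p under 0.05 (median -0.18, all genes -0.01), where Sult1a1 rose at least 15.3-fold. LPS against unstimulated cells gave 2 higher and 3 lower (median -0.31, all genes -0.09). Chst1, a carbohydrate sulfotransferase gene, rose by 1.83 ± 0.40, Tpst1, for a tyrosylprotein sulfotransferase, rose by 1.17 ± 0.19, and the heparan sulfotransferase gene Hs2st1 fell by 1.24 ± 0.20. Sgsh, a lysosomal sulfatase gene, fell at least 2.86-fold to background. The calls of Hs2st1 and Sgsh ended with no background correction (-0.85 and -0.81) and in the processed value table. Between Dex plus LPS and Dex 1 was higher and 2 lower (median -0.26, all genes -0.04), Chst1 with 2.40 ± 0.40, Sgsh with -1.83 ± 0.23 and Chst12 with -1.38 ± 0.30. The Sgsh call ended uncorrected (-0.87), and that of Chst12 without the first Dex array (-0.90) or the second Dex plus LPS array (-1.19, adjusted p = 0.074, limma). Dex plus LPS against LPS gave 0 of 23 calls, with 6 at an unadjusted p under 0.05 (median 0.15, all genes 0.06).

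Of 44 listed ADAMTS, ADAMTS-like and microfibril genes only 8 were tested, and 0 were called by limma in Dex against unstimulated cells, with 3 at an unadjusted p under 0.05 (median 0.26, all genes -0.01). With LPS alone 2 were higher and 0 lower (median -0.07, all genes -0.09). Adamts4, for an aggrecan-cleaving protease, rose at least 6.27-fold from background, and Lox, for lysyl oxidase, which crosslinks collagen and elastin, rose by 3.08 ± 0.20 (adjusted p = 3.6e-06, limma). Both were also higher in Dex plus LPS against Dex (2 higher and 0 lower, median 0.05, all genes -0.04), Lox by 2.90 ± 0.20 and Adamts4 at least 4.60-fold. Dex plus LPS against LPS gave 0 of 8 calls, with 5 at an unadjusted p under 0.05 (median 0.41, all genes 0.06).

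Of 29 listed mitotic kinase and TGF-beta genes around Rgcc 14 were tested. In Dex against unstimulated cells 1 was higher and 0 lower (median 0.29, all genes -0.01), the TGF-beta receptor gene Tgfbr2 with 1.35 ± 0.24 (adjusted p = 0.0099, limma, and 0.059 without the first unstimulated array). With LPS alone 1 was higher and 2 lower (median -0.03, all genes -0.09). The cyclin gene Ccne1 rose at least 3.12-fold from background, the mitotic kinase gene Aurka fell by 1.80 ± 0.25, and Cdk1, for the kinase that Rgcc protein binds, fell by 1.01 ± 0.17, a call lost under 6 of 17 alternatives (-0.97 without the first unstimulated and -0.92 without the first LPS array). The Aurka call ended uncorrected (-0.87) and that of Ccne1 in the processed value table (0.92). Where Rgcc was higher, in Dex plus LPS against Dex, 4 were higher and 4 lower (median -0.23, all genes -0.04). Tgfbr2 fell by 2.02 ± 0.24, Aurka by 1.50 ± 0.25 and Cdk1 by 1.41 ± 0.17, and Cdc25b, which encodes a phosphatase that activates Cdk1, was at least 1.57-fold lower. Uncorrected, the calls of Aurka (-0.80) and Cdc25b (-0.79) ended. The 4 called higher changed less, with fitted differences from 1.10 to 1.33. Against LPS, Dex plus LPS had 0 higher and 1 lower, Ccne1, which fell by 1.28 ± 0.24 (median 0.31, all genes 0.06) and is named there after its value was seen.

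The annotated promoters of the members were read for plain motif matches because 4 of the genes moved together and Rgcc did not. RefSeq (build GRCm38.p6) gives a start for each gene and a second one for F13a1, 6 windows of 300 bases in all, each running from 250 bases before the start to 50 after it. Each motif was searched on both strands, with overlaps between motifs allowed. A palindromic glucocorticoid receptor element spelled GNACANNNTGTNC was in 0 of 6 member windows and in 0.47% of the 32851 windows in the RefSeq table. The hexamer AGAACA, a single arm of such an element, was in 1 of 6, that of Sult1a1, with 2 matches, and in 18.97% of all windows. The PU.1 core GAGGAA was in 3 of 6, both F13a1 windows and that of Sult1a1, and in 28.28% of all. The NF-kB pattern GGGANNNNCC was in 1 of 6, that of Rgcc, and in 20.73% of all. The AP-1 pattern TGANTCA (7.81% of all) and the C/EBP pattern TTGCNNAA (10.8% of all) were in 0 of 6. No match says only that these letters are not in this window.

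The windows with matches to more than 1 PU.1 core, to the hexamer or to the NF-kB pattern are shown 5′ to 3′ on the strand of the gene, in lower case with the matches in capitals. They are F13a1 at chr13:37050195-37050494, Sult1a1 at chr7:126676369-126676668 and Rgcc at chr14:79301586-79301885, all on the minus strand. Capitals mark PU.1 cores in F13a1, hexamers and a PU.1 core in Sult1a1, and the NF-kB pattern in Rgcc.
F13a1: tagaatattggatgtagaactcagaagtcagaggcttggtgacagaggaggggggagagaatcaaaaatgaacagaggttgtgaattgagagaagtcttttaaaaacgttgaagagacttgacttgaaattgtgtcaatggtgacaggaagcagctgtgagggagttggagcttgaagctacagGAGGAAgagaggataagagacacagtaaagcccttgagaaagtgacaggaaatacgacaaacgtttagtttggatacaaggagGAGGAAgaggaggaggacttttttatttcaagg
Sult1a1: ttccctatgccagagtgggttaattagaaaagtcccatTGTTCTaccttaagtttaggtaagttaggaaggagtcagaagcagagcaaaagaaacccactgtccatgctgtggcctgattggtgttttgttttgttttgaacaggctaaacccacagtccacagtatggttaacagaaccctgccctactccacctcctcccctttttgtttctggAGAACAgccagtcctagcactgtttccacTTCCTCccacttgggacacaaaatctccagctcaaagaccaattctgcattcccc
Rgcc: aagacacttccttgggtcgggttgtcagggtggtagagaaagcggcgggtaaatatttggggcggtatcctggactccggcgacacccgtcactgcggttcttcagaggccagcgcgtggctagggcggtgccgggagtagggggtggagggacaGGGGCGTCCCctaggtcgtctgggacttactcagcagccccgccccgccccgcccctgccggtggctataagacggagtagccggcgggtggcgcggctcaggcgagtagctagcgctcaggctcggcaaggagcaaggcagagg
The windows also differed in base composition. CG dinucleotides numbered 24 in Adamtsl4 and 26 in Rgcc, against 0 in Sult1a1, 3 and 5 in the F13a1 windows and 6 in Klhl6, where the median over all windows was 7. The genes that Dex raised at 6 h thus had both CG-poor and CG-rich starts.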

How the data were processed

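The files give, per the file headers, for each array and probe an average signal, a linear intensity not yet normalized, together with a detection p-value. Another deposited table gives the 6 h intensity after what its header calls cubic spline normalization, and the authors' processed value table gives intensity values at 3 h (column medians 167) and log2 values centred per probe at 6 h (column medians -0.197 to 0.163, 4003 probes empty), a scale found by setting them against the unnormalized arrays. GenomeStudio is named in the submitters' processing notes with no version, and no source used here states how the processed values were normalized. The 3 h column names show the group but not the sample, so they served as unnumbered replicates, and each detection p was taken to belong to the signal column before it, with which it never rose. Bead numbers and bead errors fill 32 further columns, which were left aside.

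Here the unnormalized signals were background-corrected (limma 3.58.1 in R 4.3.3, normexp from the detection p-values, offset 16), then quantile normalized over the 8 arrays of an experiment and log2 transformed. Genes were named through the platform annotation, with symbols updated to RefSeq, and the brightest detected probe stood for a gene. Genes whose probe had a detection p under 0.05 on each array of some group were fitted with lmFit and eBayes, 4 group means on 8 arrays, with Benjamini-Hochberg adjustment over all genes of an experiment. The fit was tested on simulated data. The median residual SD was 0.113 at 3 h and 0.202 at 6 h. Precision is limited by having 2 arrays a group. The members, lists and tests were chosen with earlier results of these data known. The text names the members, the 3 genes most like each, their nearest tested neighbours, up to 4 called genes of each list, and the genes for the check of the labels. The replicate numbers of the 6 h arrays were not taken to pair them: the labels give no shared culture or batch, and deviations of same-numbered arrays correlated between -0.22 and 0.01.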

Additional observations from a re-analysis of the deposited data

Results flagged for a closer look

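The 6 h and 3 h experiments differed in the members' response to Dex alone, tested on all 16 arrays with 8 group means (limma, 7458 genes tested in both experiments). The change of Dex minus unstimulated, 6 h minus 3 h on the log2 scale, was 2.92 ± 0.15 for Klhl6 (adjusted p = 8.3e-07), 3.30 ± 0.23 for F13a1 (adjusted p = 8.3e-06) and 2.06 ± 0.25 for Adamtsl4 (adjusted p = 0.00037). For Rgcc it was -0.19 ± 0.24 (adjusted p = 0.71). For Sult1a1, whose levels without Dex were at background, it was 4.10 ± 0.24. That value carries no p, because Sult1a1 passed the filter on dim probes only through groups with Dex. The change of LPS minus unstimulated, 6 h minus 3 h, was -1.72 ± 0.15 for Klhl6 and -0.82 ± 0.25 for Adamtsl4, the latter under 2-fold. For F13a1, Sult1a1 and Rgcc it lay between -0.62 and 0.58. The LPS arrays of both experiments entered the choice of the genes, so these LPS values are descriptions and carry no p. Over all genes 305 differed in the response to Dex and 1573 in that to LPS. Each of these values uses the 3 h arrays labelled unstimulated, Dex or LPS, and the levels of Tnf and Fkbp5 went against the labels of the first 2 of these groups, so an effect of time and one of the labels cannot be told apart.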

How the results depend on the processing

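The call of 4 of 5 members in Dex against unstimulated cells at 6 h held under all alternatives on the unnormalized and processed values, and without each array in turn (4 to 4). It was 0 in the authors' spline table and 0 with arrays averaged and experiment as a block, which takes in the 3 h arrays with doubted labels (all genes 0, of which 194 had an unadjusted p under 0.05). The 2 of 5 in LPS against unstimulated cells became 1 with no background correction, 1 with an offset of 50, 1 in the processed value table, 0 in the spline table and 0 with averaged arrays (all genes 0, 690 at an unadjusted p under 0.05), and 2 to 3 without each array. The 5 of 5 in Dex plus LPS against Dex became 4 with no background correction, 4 with median scaling, 4 in the processed value table (F13a1 was lost in each), 0 in the spline table and 4 to 5 without each array. In the main fit 1.63% of all genes were called higher in Dex against unstimulated cells and 8.75% lower in LPS against unstimulated cells. In Dex plus LPS against Dex 6.74% were called lower and 6.75% higher. The choice of genes favoured low LPS and high Dex plus LPS arrays. Nothing is therefore read from the members' counts with LPS alone or from Rgcc among the 5. The members with an unadjusted p under 0.05 in the spline table numbered 0, 2 and 3 in the 3 comparisons. Of all 7791 genes 689, 3012 and 2933 had such a p there. The non-additive difference also moved, in the processed value table to -0.49 for Adamtsl4 and in the spline table to 0.01 for Klhl6 and 0.18 for Rgcc. At 3 h the members' counts for Dex and LPS alone stayed 0. In the spline table the difference turned to -0.102 for F13a1, -0.0896 for Sult1a1, -0.0329 for Adamtsl4, -0.0351 for Klhl9 and -0.15 for Tgfbr2 in Dex against unstimulated cells. It turned to 0.12 for F13a1, -0.00737 for Klhl5, -0.125 for Chst1 and 0.0920 for Aurka in Dex plus LPS against Dex, to -0.15 for Chst1 and -0.25 for Tpst1 in LPS against unstimulated cells, and to -0.0999 for F13a1, -0.0867 for Sult1a1 and -0.0710 for Adamtsl4 in Dex plus LPS against LPS. The cause was not tested.

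Counts over all genes moved more. At 6 h the 274 genes called in Dex against unstimulated cells became 120 with no background correction, 478 with median scaling, 123 with only the 4 arrays compared, 128 in the processed table and 0 in the spline table, and 163 to 607 without each array (163 without the first and 607 without the second Dex array). For LPS the 1333 became 740 uncorrected, 781 processed and 197 in the spline table (1280 to 1410 without each array), and for Dex plus LPS against Dex the 1051 became 573, 604 and 188 (986 to 1215). In Dex plus LPS against LPS the 102 higher became 33 uncorrected, 67 with offset 50, 204 with median scaling, 33 processed and 0 in the spline table (36 to 109), and the 191 lower became 96 uncorrected and 0 in the spline table (104 to 195). Leaving out either LPS array or either Dex plus LPS array gave the 4 lowest counts in each direction, 36 to 60 higher and 104 to 119 lower. At 3 h, as labelled, the 61 for Dex became 10 uncorrected, 24 with offset 50, 0 with only the 4 arrays and 10 processed (35 to 69, with 40 and 35 without either array labelled Dex, and 2374 at an unadjusted p under 0.05 with only the 4 arrays), and the 234 for LPS became 84, 150 with offset 50 and 89 processed (230 to 269). The 93 higher in Dex plus LPS against LPS became 37, 51 and 39 (87 to 102), and the 183 lower became 77 and 81 (181 to 195). The replicate block left 4, 2 and 5 members called in the 3 tested 6 h comparisons and 259, 1331 and 1050 genes, and could not be fitted at 3 h, where the columns carry no numbers of the samples. A slide block was not run, since the headers give no slide. For dim genes such as Sult1a1 and Adamtsl4 the signal over background limits every fold.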
